A study of Brassica juncea with 2 samples.

Results

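Xyloglucan enzymes and expansins act on the load-bearing network of the plant cell wall. Xyloglucan is a hemicellulose that coats and tethers cellulose microfibrils. Xyloglucan endotransglucosylase/hydrolases (XTHs) cut its backbone and either graft the cut end onto another chain or transfer it to water, so they can loosen, rebuild or remove these tethers. Expansins are secreted proteins that let cellulose and matrix polymers slip past each other without cutting them, and in acid walls they allow turgor-driven expansion. Both families are large, are known from growing organs, and have members in Arabidopsis that answer to auxin, brassinosteroids, touch and osmotic stress.

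The members described here are the 43 of 47513 assembled unigenes (clustered transcripts, each standing for a gene or part of one) of Brassica juncea whose deposited annotation contains the word xyloglucan or expansin. By these words they comprise 19 XTH unigenes, 4 unigenes with other xyloglucan names, 13 alpha-expansins (annotated expansin A), 3 beta-expansins (expansin B), 3 expansin-like unigenes and 1 expansin named without a letter. All 43 carry the R (rapa) identifier and none the NR (non-rapa) identifier. The authors set this split by similarity to B. rapa sequences, which also gave most annotations. Members found by annotation words were therefore likely to be R, and R alone does not show from which parental genome a copy came. An annotation is given for 24686 R and 1851 NR unigenes. A further 20976 unigenes (44.1%) have none, and any XTH or expansin among them is not counted. The 43 unigenes match 33 B. rapa genes: 29 of these genes have 1 unigene each, and 4 share 14 unigenes. The authors clustered similar transcripts into 1 unigene, so a unigene may hold the reads of several copies. Reads of similar copies that stayed apart may also have been split between unigenes by the mapping. No nucleotide or protein sequence of the members was used here.

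RNA came from whole seedlings of the salt-tolerant wild type variety CS52, grown in a hydroponic system to 2 weeks of age. The salinity group (SS) was kept in 200 mM salt for 24 h, and the control group (CTRL) was kept in water and collected at the same time. Each group is 1 library from about 10 pooled seedlings, so no difference below has a replicate check and no test across samples was made. All intervals are 95% intervals for counting error only. Reads on unigenes totalled 73982305 in SS and 77863795 in CTRL, 82.4% and 82.1% of the high-quality reads of these libraries. The 43 members took 0.101% of the unigene reads in SS and 0.116% in CTRL. In whole seedlings, fewer cells of a type and less RNA per cell cannot be told apart. The 16 unigenes named after light-harvesting or photosystem I subunits summed to 25280 RPKM in SS and 27687 RPKM in CTRL. The 23 unigenes found by words for root transporters, ferric reductases and root hairs summed to 125 RPKM in SS and 108 RPKM in CTRL. These words did not share a direction. Ferric reduction oxidase summed to 58.5 RPKM in SS and 44.5 RPKM in CTRL, root hair to 51 and 49.3, and phosphate transporter 1 to 14.1 and 11.4. Nitrate transporter 2 summed to 0.907 RPKM in SS and 2.86 RPKM in CTRL. The 19 unigenes found by the words seed storage and oleosin summed to 150.4 RPKM in SS and 171 RPKM in CTRL. The words cruciferin and napin found none, and whether the 19 encode storage proteins was not tested. No unigene annotation contains the words casparian strip.

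Levels are given as RPKM, reads scaled to unigene length and to the high-quality reads of the library, using the recovered length of every unigene for SS as well as CTRL. The log2 ratio of SS to CTRL was calculated after adding 0.1 RPKM to both values, which understates the change of low unigenes, and ratios without log2 carry no such addition. Counts of 2-fold differences use that log2 scale and a minimum of 1 RPKM in SS or CTRL. Of the 43 members 42 reached 1 RPKM. The exception is the expansin A6 unigene Bju_CS52_R_1402, with 15 reads (0.517 RPKM) in SS and 26 reads (0.849 RPKM) in CTRL.

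Most members changed by less than 2-fold after 24 h of salt, and the larger differences were in the XTHs. Of the 42 members, 1 was at least 2-fold higher in SS (2.38%), where 1.91% of all 43250 unigenes passing the minimum were, and 3 were at least 2-fold lower (7.14%), where 4.21% of all unigenes were. Among the 25251 R unigenes alone these backgrounds are 1.12% and 4.13%. With counts of 1 and 3, the members' shares are not set apart from the background. The median log2 ratio was -0.28 over the 42 members, -0.06 over all unigenes and -0.10 over R unigenes. The log2 ratio was below 0 for 28 members (66.7%), where 57.4% of all unigenes and 62.2% of R unigenes were below 0.

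Most of the smaller differences exceeded counting error, where every read is taken as independent. The interval of the ratio lay wholly below 1 for 24 members (57.1%) and wholly above 1 for 14 (33.3%), where 31.8% and 20.7% of all unigenes and 36.4% and 18.1% of R unigenes did so. The members were also read more deeply than the average unigene, with a median of 409 reads in SS and 526 in CTRL, against 268 and 300 over all unigenes, which narrows their intervals. What seedling pools or library preparation add to this error cannot be seen from 1 library per group.

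**Figure D1:**
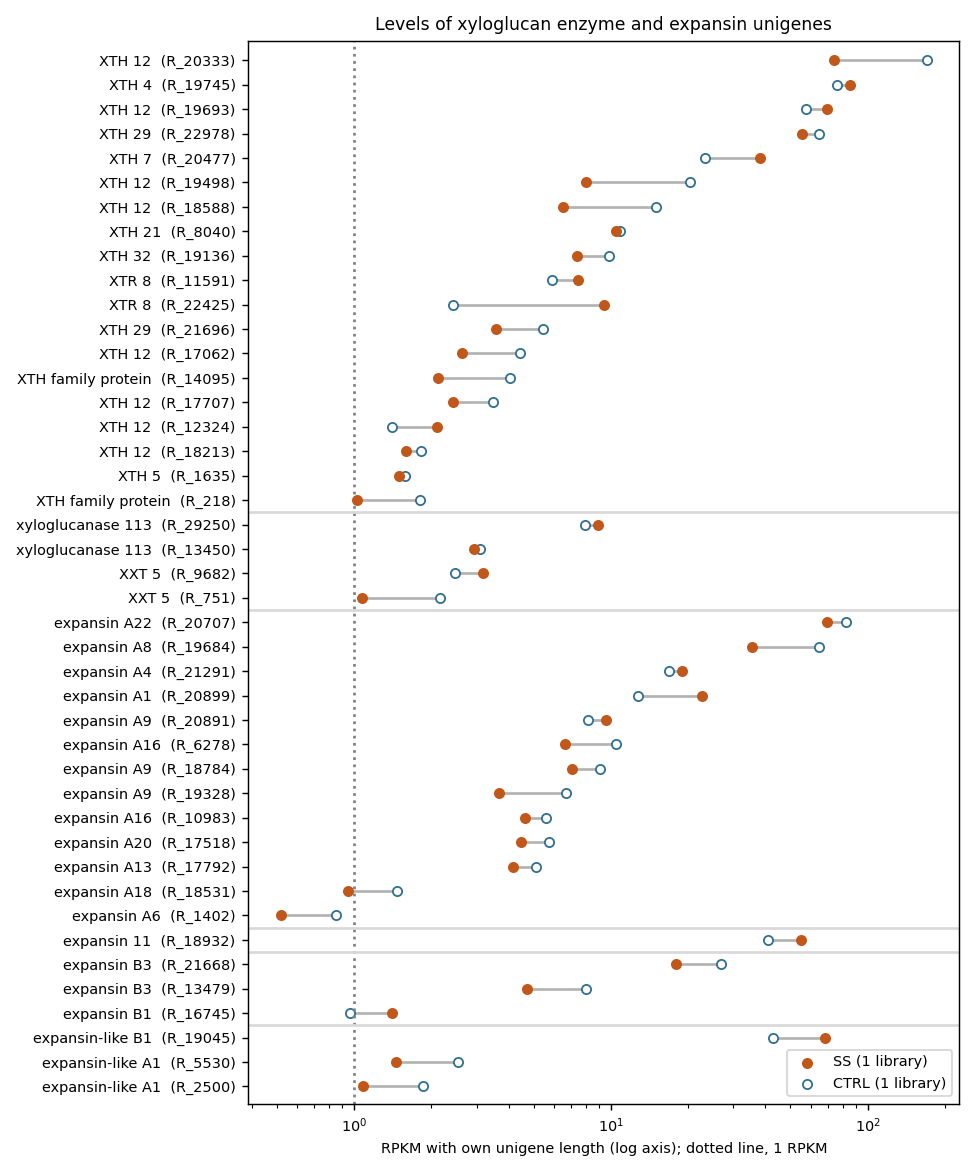
Level of each of the 43 unigenes in RPKM with its own length, on a log axis, with SS as filled and CTRL as open points (1 library each) joined by a line, grouped by class and ordered by mean level. Levels span from 0.517 RPKM (expansin A6, SS) to 170.5 RPKM (R_20333, annotated as XTH 12, CTRL). The longest line belongs to R_22425, at 9.40 RPKM in SS and 2.43 RPKM in CTRL.

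A few unigenes carried most of the signal. The 8 highest members made up 69.4% of the summed RPKM of all members in SS and 70.6% in CTRL, and 7 unigenes were among the 8 highest in both libraries. In SS these were the XTH 4, XTH 29 and a pair of XTH 12 unigenes (Bju_CS52_R_20333 and Bju_CS52_R_19693), expansin A22, expansin-like B1, expansin 11 and, reaching this group in SS only, XTH 7. Expansin A8 held that place in CTRL. The summed level of all members was 743 RPKM in SS and 850.0 RPKM in CTRL, a ratio of 0.874. Without Bju_CS52_R_20333 the sums were 669 and 680 RPKM, a ratio of 0.985. This 1 unigene therefore held most of the difference between the sums.

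Among the 19 XTH unigenes, 1 was higher in SS by 2-fold or more, 3 were lower by 2-fold or more and 15 changed by less, with a median log2 ratio of -0.21. These are 5.26% and 15.8% of the XTHs, where 1.91% and 4.21% of all unigenes passed, but they rest on 1 and 3 unigenes. All 3 lower unigenes belong to the 8 that share the B. rapa match Bra006814, annotated as XTH 12. The highest of them, Bju_CS52_R_20333, had 7652 reads in SS and 18601 reads in CTRL on 1151 bp. Its level was 74.1 RPKM (interval 72.4 to 75.8) in SS, against 170.5 RPKM (168 to 173) in CTRL. It was the highest of all 43 members in CTRL and the second highest in SS. The log2 ratio was -1.20 and the RPKM ratio 0.435, with an interval from 0.423 to 0.446. Its share of the summed XTH level was 19.0% in SS and 35.5% in CTRL, and without it the XTH sum was 315 RPKM in SS and 310 RPKM in CTRL. The XTH sum thus stood below that of CTRL only with this unigene included.

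The other XTHs past 2-fold lower were of intermediate level. Bju_CS52_R_19498 had 783 reads (8.01 RPKM) in SS and 2100 reads (20.3 RPKM) in CTRL, a log2 ratio of -1.33, the lowest of all members. Its RPKM ratio was 0.394, with an interval from 0.362 to 0.428. Bju_CS52_R_18588 had 597 reads (6.50 RPKM) in SS and 1457 reads (15.0 RPKM) in CTRL, a log2 ratio of -1.20 and a ratio of 0.433 (0.393 to 0.476). The intervals of all 3 lie wholly below a ratio of 0.5.

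Although the deposited table gives these 3 unigenes 1 B. rapa name, the study's Arabidopsis annotation ties them to different XTH genes. Bju_CS52_R_20333 is matched to AT4G03210, an XTH of shoot apices and flower stalks in Arabidopsis. Bju_CS52_R_19498 is matched to AT5G65730 (XTH6), whose annotation includes the response to water deprivation, and Bju_CS52_R_18588 to AT3G23730 (XTH16). The name XTH 12 is therefore best read as the label of a B. rapa match and not as the gene.

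The remaining 5 unigenes of this match changed by less than 2-fold and went both ways. Bju_CS52_R_19693, the other abundant one, had 6860 reads (69.3 RPKM) in SS and 6025 reads (57.6 RPKM) in CTRL, a ratio of 1.20 (1.16 to 1.25). In SS its level was thus close to that of Bju_CS52_R_20333, whereas in CTRL the levels of these unigenes were 57.6 and 170.5 RPKM. Bju_CS52_R_12324 had 123 reads (2.11 RPKM) in SS and 86 reads (1.40 RPKM) in CTRL, a log2 ratio of 0.56. Bju_CS52_R_17062, Bju_CS52_R_17707 and Bju_CS52_R_18213 had log2 ratios of -0.73, -0.50 and -0.18, and the interval of the last, 0.699 to 1.10, included a ratio of 1. No Arabidopsis match was available for the remaining 5, so the 8 are grouped by their B. rapa match and not as 1 gene. The median over all 8 was -0.62, and their summed level was 167 RPKM in SS and 275 RPKM in CTRL. Without Bju_CS52_R_20333 the sums were 92.6 RPKM in SS and 104 RPKM in CTRL, a ratio of 0.889, and the median was -0.50. Over the 11 XTH unigenes with other matches the median was -0.07, with 4 above 0 and 7 below. That is near the background, where 57.4% of all unigenes and 62.2% of R unigenes were below 0. The match of the 8 was singled out because the XTHs past 2-fold lower share it. Its lower median follows in part from that choice, and no conclusion is drawn from the contrast with the 11.

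**Figure D2:**
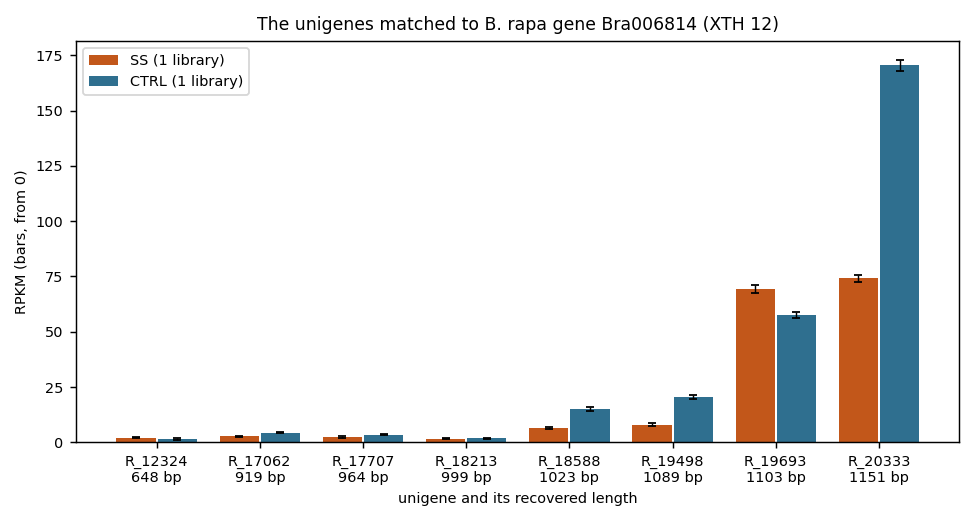
RPKM of the 8 unigenes matched to the B. rapa gene Bra006814, ordered by recovered length (bp), with SS bars left and CTRL bars right (1 library each) and 95% Poisson intervals for counting error. R_20333, R_19498 and R_18588 are lower in SS by at least 2-fold, while R_19693 stands at 69.3 RPKM in SS and 57.6 RPKM in CTRL.

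The higher XTH was a xyloglucan endo-transglycosylase-related 8 unigene, Bju_CS52_R_22425. It had 1126 reads (9.40 RPKM, interval 8.86 to 9.97) in SS, against 307 reads (2.43 RPKM, 2.16 to 2.71) in CTRL on 1334 bp. The RPKM ratio was 3.87 (3.41 to 4.41) and the log2 ratio 1.91, higher than 99.3% of all unigenes. It ranked 34th among the 43 members in CTRL and 15th in SS. Its Arabidopsis match, AT3G44990, encodes an XTH of a clade for which xyloglucan hydrolysis has been shown in Arabidopsis. A second unigene with the same name but another B. rapa match, Bju_CS52_R_11591, had 410 reads (7.43 RPKM) in SS and 345 reads (5.92 RPKM) in CTRL, a log2 ratio of 0.32. The XTH 32 unigene Bju_CS52_R_19136, from the same clade in Arabidopsis, had 7.35 RPKM in SS and 9.84 RPKM in CTRL, a log2 ratio of -0.42. The members of this clade therefore did not share a direction.

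Among the other abundant XTHs the differences were smaller. XTH 4 (Bju_CS52_R_19745), whose Arabidopsis namesake is expressed in stems and contributes to xylem walls, was the highest member in SS, with 8518 reads (85.7 RPKM), against 8009 reads (76.2 RPKM) in CTRL. Its ratio was 1.12 (1.09 to 1.16). XTH 7 (Bju_CS52_R_20477) had 3986 reads (38.2 RPKM) in SS and 2556 reads (23.2 RPKM) in CTRL, a ratio of 1.65 (1.57 to 1.73), the second largest ratio among the XTHs. XTH 29 (Bju_CS52_R_22978) had 55.7 RPKM in SS and 64.4 RPKM in CTRL, a ratio of 0.865 (0.838 to 0.893). A scarcer unigene of the same B. rapa match, Bju_CS52_R_21696, had 3.58 RPKM in SS and 5.42 RPKM in CTRL, a ratio of 0.661 (0.583 to 0.749). Both ratios were below 1, at levels more than 10-fold apart in both libraries.

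The rest of the XTHs were at or below 10.9 RPKM. XTH 21 (Bju_CS52_R_8040), whose Arabidopsis namesake is known from roots, had 10.5 RPKM in SS and 10.9 RPKM in CTRL, and XTH 5 (Bju_CS52_R_1635) had 1.5 RPKM in SS and 1.58 RPKM in CTRL. The intervals of their ratios, 0.845 to 1.10 and 0.617 to 1.45, included 1. The pair named only as XTH family proteins, Bju_CS52_R_14095 and Bju_CS52_R_218, had ratios of 0.526 (0.427 to 0.646) and 0.569 (0.346 to 0.917). The second of these is a short unigene of 304 bp with 28 reads in SS and 52 reads in CTRL, which gives its ratio a wide interval.

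Of the 4 unigenes with other xyloglucan names, none reached 2-fold on the log2 scale used. Xyloglucan xylosyltransferase 5 is a Golgi enzyme that adds xylose side chains to the glucan backbone. Its unigenes, which share a B. rapa match and may be pieces of 1 transcript or separate copies, went opposite ways. Bju_CS52_R_9682 (537 bp) had 153 reads (3.17 RPKM) in SS and 126 reads (2.48 RPKM) in CTRL, a ratio of 1.28 (1.01 to 1.64). Bju_CS52_R_751 (312 bp) had 30 reads (1.07 RPKM) in SS and 64 reads (2.16 RPKM) in CTRL, a ratio of 0.495 (0.310 to 0.775). With its log2 ratio of -0.95 it was the member nearest to 2-fold lower, and without the added 0.1 RPKM it would be past it. The other pair is annotated as xyloglucanase 113. In Arabidopsis this name belongs to an arabinosyltransferase of extensin glycoproteins, found in mutants that respond differently to a xyloglucanase, and not to a xyloglucan enzyme. Bju_CS52_R_29250 had 8.90 RPKM in SS and 7.91 RPKM in CTRL, a ratio of 1.12 (1.06 to 1.20), and Bju_CS52_R_13450 had 2.92 RPKM in SS and 3.09 RPKM in CTRL, a ratio of 0.944 (0.770 to 1.16).

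**Figure D3:**
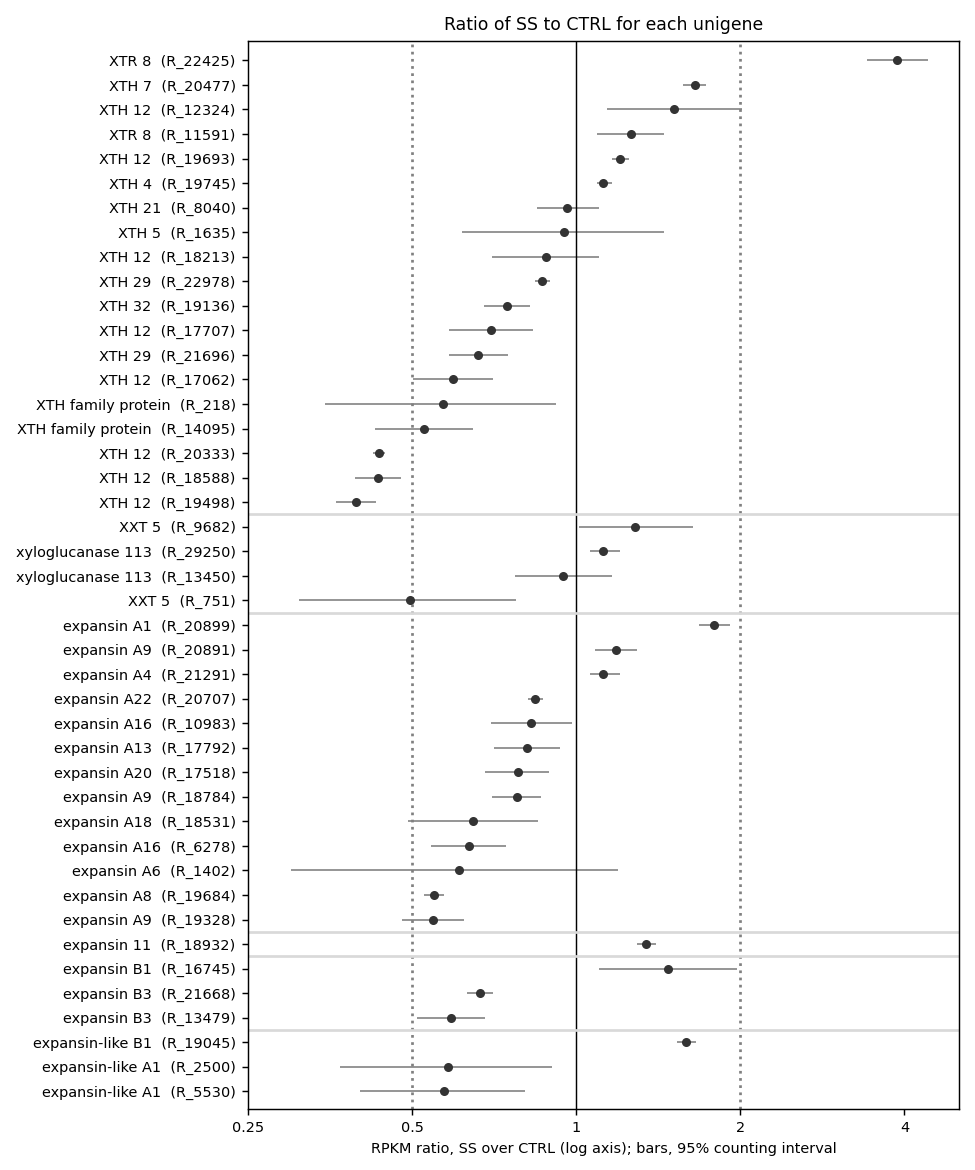
RPKM ratio of SS over CTRL for each of the 43 unigenes on a log axis, with 95% Clopper-Pearson intervals from reads (counting error only), ordered by ratio within each class; dotted lines mark 2-fold. R_22425 lies above 2 at 3.87, and 3 unigenes annotated as XTH 12 lie below 0.5 with their whole intervals.

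None of the 19 expansin unigenes that passed the minimum reached 2-fold in either direction, where 1.91% of all unigenes were past it on the higher and 4.21% on the lower side, so that 0 of 19 is near the background. Over the 12 alpha-expansins that passed the minimum, the median log2 ratio was -0.32, with 3 above 0 and 9 below (75%). Of all unigenes 57.4% were below 0, and of R unigenes 62.2%. The ratio intervals of these 3 (25%) lay wholly above 1 and of these 9 (75%) wholly below 1. Among all unigenes 20.7% and 31.8% did so, and among R unigenes 18.1% and 36.4%. The alpha-expansins had a median of 518 reads in SS and 787 in CTRL, against 268 and 300 over all unigenes, which narrows their intervals. Their summed level, expansin A6 included, was 188 RPKM in SS and 230 RPKM in CTRL. Expansin A22 (Bju_CS52_R_20707) was the most abundant, with 7373 reads (69.5 RPKM) in SS and 9260 reads (82.6 RPKM) in CTRL, a ratio of 0.841 (0.816 to 0.867). Expansin A8 (Bju_CS52_R_19684) had 3519 reads (35.5 RPKM) in SS and 6779 reads (64.8 RPKM) in CTRL, a ratio of 0.548 (0.526 to 0.571). Its log2 ratio was -0.87, and its place among the members was 9th in SS and 4th in CTRL. Without it the alpha-expansin sum was 153 RPKM in SS and 165 RPKM in CTRL.

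The alpha-expansins above 1 were of middle level. Expansin A1 (Bju_CS52_R_20899), whose Arabidopsis namesake acts in guard cell walls, had 2440 reads (22.7 RPKM) in SS and 1439 reads (12.7 RPKM) in CTRL. Its ratio was 1.79 (1.68 to 1.91) and its log2 ratio 0.84, which made it the member nearest to 2-fold higher. Expansin A4 (Bju_CS52_R_21291) had 19.0 RPKM in SS and 16.9 RPKM in CTRL, a ratio of 1.12 (1.06 to 1.20).

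Unigenes with 1 name did not always share a direction. Of the 3 named expansin A9, which match separate B. rapa genes, Bju_CS52_R_20891 had 9.58 RPKM in SS and 8.11 RPKM in CTRL, a ratio of 1.18 (1.08 to 1.29). Bju_CS52_R_18784 and Bju_CS52_R_19328 had ratios of 0.777 (0.701 to 0.860) and 0.546 (0.479 to 0.622), so the copies spanned 1.18 to 0.546 with intervals that did not overlap. The pair named expansin A16, Bju_CS52_R_6278 and Bju_CS52_R_10983, had ratios of 0.635 (0.542 to 0.744) and 0.826 (0.696 to 0.980), both below 1. Expansins A20, A13 and A18 had ratios between 0.647 and 0.811, and the last, which is known from root hairs in Arabidopsis, was scarce, at 0.95 RPKM in SS and 1.47 RPKM in CTRL.

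Expansin 11 (Bju_CS52_R_18932), named without a letter, had 5170 reads (54.9 RPKM) in SS and 4064 reads (40.8 RPKM) in CTRL, a ratio of 1.34 (1.29 to 1.40). It was among the 8 most abundant members in both libraries.

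Beta-expansins, best known from the wall-loosening pollen allergens of grasses, were scarcer. The unigene Bju_CS52_R_21668, named expansin B3, held 74.5% of their summed level in SS and 75.0% in CTRL. It had 2030 reads (17.9 RPKM) in SS and 3225 reads (26.8 RPKM) in CTRL, a ratio of 0.665 (0.629 to 0.703). A second expansin B3 unigene with another B. rapa match, Bju_CS52_R_13479, had 4.71 RPKM in SS and 8.0 RPKM in CTRL, a ratio of 0.589 (0.510 to 0.680). Expansin B1 (Bju_CS52_R_16745) had 114 reads (1.41 RPKM) in SS and 82 reads (0.962 RPKM) in CTRL, a ratio of 1.47 (1.10 to 1.97). The B3 pair and B1 thus lay on opposite sides of 1.

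The expansin-like proteins resemble expansins in sequence, and a wall-loosening activity has not been established for them. Expansin-like B1 (Bju_CS52_R_19045) accounted for 96.4% of their summed level in SS and 90.7% in CTRL. It had 6482 reads (68.3 RPKM) in SS and 4297 reads (42.8 RPKM) in CTRL, a ratio of 1.59 (1.53 to 1.66) and a log2 ratio of 0.67. The expansin-like A1 unigenes Bju_CS52_R_5530 and Bju_CS52_R_2500, which share a B. rapa match, had ratios of 0.571 (0.401 to 0.806) and 0.581 (0.368 to 0.903). Both are short, with 407 and 342 bp, and rest on 53 and 33 reads in SS and 98 and 60 reads in CTRL. The summed expansin-like level, 70.8 RPKM in SS and 47.2 RPKM in CTRL, therefore followed expansin-like B1, while the median log2 ratio of the class was -0.73.

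**Figure D4:**
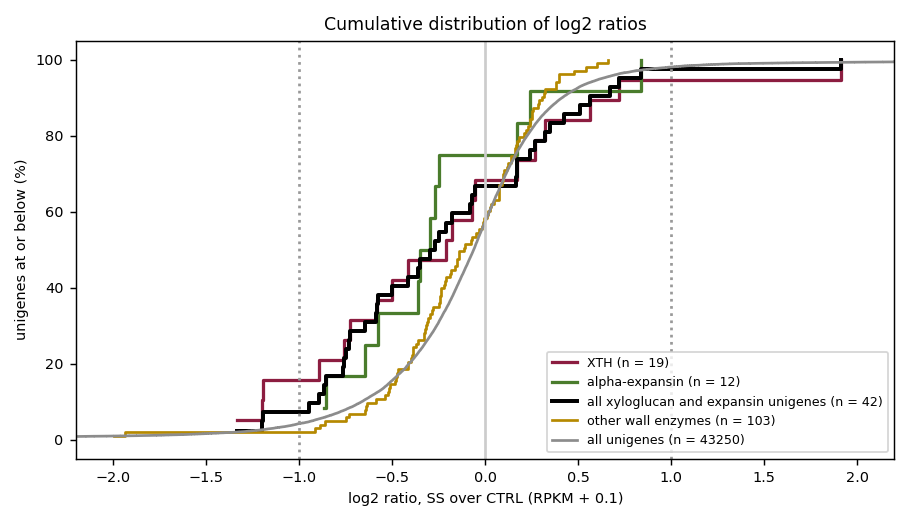
Cumulative share of unigenes (%) at or below each log2 ratio of SS over CTRL (RPKM + 0.1) for XTHs, alpha-expansins, all members, other wall enzymes and all unigenes, each with a minimum of 1 RPKM in SS or CTRL; the axis is limited to the central range. The median is -0.28 over the 42 members and -0.06 over all unigenes. The members' curve lies left of that of all unigenes around these medians. It crosses that curve above 0 and lies to its right up to 0.84, past which the curves lie close together.

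The shorter members were covered by fewer reads. The recovered lengths of the members ran from 304 to 2639 bp with a median of 1020 bp, against 744 bp over all unigenes. The 14 passing members of up to 800 bp had a median of 147 reads in SS and 166 in CTRL, and their median log2 ratio was -0.46. For the 28 members over 800 bp these medians were 1078 reads in SS, 1448 reads in CTRL and a log2 ratio of -0.27. All 4 unigenes that passed 2-fold were over 800 bp, where 1.15% of all unigenes passed 2-fold higher and 2.41% passed 2-fold lower.

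A list of annotation words for enzymes that make, trim or cut xyloglucan and other beta-glucans gave 114 further unigenes, of which 103 reached 1 RPKM. In SS, 0 of them passed 2-fold higher and 2 (1.94%) passed 2-fold lower, near the 1.91% and 4.21% over all unigenes, and the list had a median log2 ratio of -0.12. The list is broad, since 56 of its unigenes are O-fucosyltransferases, most of which are not known to act on xyloglucan. The pair past 2-fold lower were Cellulose-synthase-like C4 (Bju_CS52_R_19908), of the family that makes the xyloglucan backbone, with 70 reads (0.696 RPKM) in SS and 327 reads (3.08 RPKM) in CTRL, and a short glycosyl hydrolase 9B1 unigene (Bju_CS52_R_317), with 66 reads (2.41 RPKM) in SS and 275 reads (9.51 RPKM) in CTRL. Their log2 ratios were -2.00 and -1.94. Other unigenes of these names, with other B. rapa matches, differed less. A second Cellulose-synthase-like C4 unigene (Bju_CS52_R_11513) had 1.97 RPKM in SS and 1.95 RPKM in CTRL, a ratio of 1.01 (0.768 to 1.33). A second glycosyl hydrolase 9B1 unigene (Bju_CS52_R_25870) had 18.1 RPKM in SS and 27.3 RPKM in CTRL, a ratio of 0.665 (0.634 to 0.697).

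Within that list the groups differed in where they lay. Of 5 Cellulose-synthase-like C unigenes, 4 were below 0. The most abundant, C12 (Bju_CS52_R_28875), had 10.1 RPKM in SS and 16.9 RPKM in CTRL, a ratio of 0.598 (0.568 to 0.631). A second C12 unigene of the same B. rapa match, Bju_CS52_R_28897, differed less. It had 7.32 RPKM in SS and 8.56 RPKM in CTRL, a ratio of 0.855 (0.801 to 0.914). Of 9 passing glycosyl hydrolase 9 unigenes, the endoglucanases that cut beta-glucans, 8 were below 0, with a median of -0.52. The 4 unigenes with fucosidase names were all above 0, with log2 ratios from 0.10 to 0.48. Some fucosidases take fucose off xyloglucan side chains, and which of these 4 do so was not tested. The 2 alpha-xylosidase unigenes, which trim xylose from xyloglucan, had log2 ratios from -0.25 to 0.17. With counts this small, and 57.4% of all unigenes below 0, these are descriptions of 2 libraries.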

How the data were processed

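After assembly (Trinity) and clustering (CD-HIT-EST), the authors mapped filtered reads back to the unigenes with BOWTIE2, and their methods name DESeq for normalization. Versions of Trinity, BOWTIE2 and DESeq were not given in the sources used here. The deposited CTRL column is RPKM. The deposited SS column is headed RPKM but its values behave as a length-free signal: each of the 47505 given is a whole number of steps (to within 0.01 read), and 1 step is the RPKM of a single read on 849 bp. SS reads were therefore divided by the recovered length of the unigene to give RPKM. Lengths were those that gave whole CTRL reads (within at most 0.001 read, with a tighter limit at fewer reads) while increasing with the unigene number. This settled the length of 47389 unigenes, all members included. For the other 124 the midpoint between neighbouring lengths was used. The Spearman correlation of log2 ratio with length across unigenes was 0.0507 with own lengths, against 0.881 as deposited. On 1000 bp, a single read equals 0.0111 RPKM in SS and 0.0105 RPKM in CTRL.

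Ratios have exact Clopper-Pearson and levels exact Poisson intervals (SciPy 1.17.1). These intervals take every read as independent. The libraries were sequenced paired-end, and both reads of a fragment, where both were counted, are not independent. PCR copies of a molecule also count as separate reads, so true errors are larger. The recovery and counts were tested on data simulated from the recovered lengths and whole reads, which cannot show whether these lengths are the true ones. Members, lists and rules were chosen with earlier results of these data known. Named are the unigenes past 2-fold, the 5 highest of each class by mean RPKM, the nearest to 2-fold and those sharing their B. rapa match or name; the remaining members, named after their values were seen, complete the family. Among the wall enzymes, those past 2-fold, both C12 unigenes and the others sharing these names were likewise chosen after their values were seen. Alternatives were pseudocounts of 0.01 and 1 RPKM, no minimum, a minimum of 5 RPKM, size factors, scaling to unigene reads, removal of a running median over 500 unigenes, and SS as deposited.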

Additional observations from a re-analysis of the deposited data

How the results depend on the processing

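With the SS values as deposited, at a common length, 4 members passed 2-fold higher and 8 passed 2-fold lower (in place of 1 and 3), as did 2 XTHs on the higher side and 1 alpha-expansin on each side (in place of 1 and 0). Under that setting Bju_CS52_R_20333, Bju_CS52_R_19498 and Bju_CS52_R_18588 had log2 ratios of -0.76, -0.98 and -0.93. The cause lies in the construction, since unigenes over 849 bp are raised and shorter ones lowered; over all unigenes 7033 were then higher and 9144 lower, in place of 828 and 1820. Under the other alternatives the members' counts were 1 higher and 3 lower, except 4 lower with a pseudocount of 0.01 RPKM, which brought Bju_CS52_R_751 to -1.01. The median over members stayed below 0, from -0.30 to -0.16, that over XTHs from -0.42 (only unigenes over 800 bp, an alternative chosen after seeing the data) to -0.13, and that over alpha-expansins from -0.35 to -0.15. Over all unigenes a pseudocount of 1 RPKM gave 403 higher and 644 lower, and a minimum of 5 RPKM gave 225 and 380. Of the 29 unigenes named by rule, 4 changed sign with the deposited values and 1 with the running median removed. With 1 library per group no library could be left out, and depth leaves ratios of members under about 100 reads wide.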
